A study of Mus musculus with 5 samples.

Results

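Cytotoxic lymphocytes with Nkg7 and Ccl5 were examined in single-cell RNA profiles of mouse ventral skin. They were 323 of the 10611 kept cells, and 3.04% of them. A cell was kept with at least 300 genes and at most 10% of its unique molecular identifiers (UMIs, 1 for each captured RNA molecule) from mitochondrially encoded genes. A member had at least 3 UMIs summed over Nkg7, Ccl5, Gzmc, Gzmb and Gzma, with at least 1 of Nkg7. Its type 2 genes (Gata3, Il1rl1, Il5, Il13 and Il4) summed to under 2 UMIs, Foxp3 and Trdc were at 0, and collagen genes with Dcn, like MHC class II genes with Cd74, each made up under 1% of its UMIs. These genes chose the cells, so their values are given as a description without a test.

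The study profiled 5 libraries of ventral skin with 10x 3′ v2 chemistry. Each library pooled 2 C57BL/6J mice, killed at postnatal day 28. Prx1Cre+Ikkbf/f mice, called Ikkb_cKO here, gave 3 libraries, and wild type mice, called WT, gave 2. Ikkbf/f is a floxed allele of Ikbkb, which encodes the kinase IKKβ of the NF-κB pathway. Prx1Cre is driven by a Prrx1 enhancer active in mesenchyme of the limb buds and ventral trunk, so lymphocytes are not its known site of recombination, and the library, not the cell or the mouse, was the replicate.

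Cytotoxic lymphocytes comprise natural killer (NK) cells, innate lymphoid cells of group 1 and killer T cells. They hold granzymes, which are proteases, and perforin, which forms pores, in secretory granules, and release them onto infected, transformed or stressed cells. IL-15 signalling through the β chain of the IL-2 receptor, encoded by Il2rb, sustains many of them, and they attract other leukocytes with chemokines such as CCL5, CCL4 and XCL1.

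Nkg7 (chr7:43437073-43438249, plus strand, GENCODE annotation of mm10) encodes a granule membrane protein needed for full degranulation, Gzma (chr13:113093825-113100981, minus strand) a tryptase, Gzmc (chr14:56231441-56234656, minus strand) a granzyme of the cluster that also holds Gzmb, and Prf1 (chr10:61297833-61304680, plus strand) perforin. The 250 bases before the RefSeq start of these 4 genes (GRCm38.p6) are shown because these genes define the cells or separate their kinds. Capitals mark 3 short motifs on either strand, namely GGTGTG, the core of T-box sites, TGTGGT, the core of Runx sites, and CAGGAAG, an Ets site. No match overlapped another in these 4 stretches.
Nkg7, chr7:43436888-43437137, plus strand: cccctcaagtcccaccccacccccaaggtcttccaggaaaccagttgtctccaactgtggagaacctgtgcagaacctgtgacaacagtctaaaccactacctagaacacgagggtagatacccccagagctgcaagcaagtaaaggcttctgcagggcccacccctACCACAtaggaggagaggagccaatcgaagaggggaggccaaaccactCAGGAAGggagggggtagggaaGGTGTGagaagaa
Gzma, chr13:113100982-113101231, minus strand: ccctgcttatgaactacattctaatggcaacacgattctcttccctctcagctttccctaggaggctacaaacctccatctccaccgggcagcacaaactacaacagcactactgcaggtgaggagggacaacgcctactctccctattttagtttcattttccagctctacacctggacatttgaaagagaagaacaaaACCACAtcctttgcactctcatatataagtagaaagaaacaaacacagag
Prf1, chr10:61297586-61297835, plus strand: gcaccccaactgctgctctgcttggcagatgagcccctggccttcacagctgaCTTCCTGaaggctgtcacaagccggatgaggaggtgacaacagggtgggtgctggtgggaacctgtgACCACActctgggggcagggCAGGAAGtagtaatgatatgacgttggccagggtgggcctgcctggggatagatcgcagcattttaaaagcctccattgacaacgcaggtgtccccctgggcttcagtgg
Gzmc, chr14:56234658-56234907, minus strand: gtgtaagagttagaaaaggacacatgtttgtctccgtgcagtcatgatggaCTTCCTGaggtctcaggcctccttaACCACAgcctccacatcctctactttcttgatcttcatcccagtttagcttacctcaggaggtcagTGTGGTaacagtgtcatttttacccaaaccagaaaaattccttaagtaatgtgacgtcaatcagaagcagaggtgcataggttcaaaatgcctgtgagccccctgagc
The Runx core stood in all 4 stretches, and in 14.0% of 32851 promoter windows of this length. The Ets motif stood in those of Nkg7, Prf1 and Gzmc, and in 10.8% of all windows. The T-box core stood in that of Nkg7, where its first base lay 13 bases before the RefSeq start, and in 16.3% of all windows. The GENCODE start of Nkg7 lies within this stretch, so its T-box and Ets matches fall inside the gene as GENCODE places it. These are matches of letters and show no binding.

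Members were measured at a median of 2496 UMIs per cell, with a range of 571 to 16954. The 3 Ikkb_cKO libraries held 45, 42 and 123 members with median UMIs of 1940, 2055 and 3427, and the 2 WT libraries held 66 and 47 members with median UMIs of 2064 and 2898. Over all kept cells, median UMIs were 1611, 1885 and 2793 in Ikkb_cKO libraries and 3607 and 4035 in WT libraries, so depth differed with genotype. Ikkb_cKO library 3 stood apart. Its members' summed counts differed from those of Ikkb_cKO libraries 1 and 2 by a chi-square of at least 3.02 per degree of freedom, against 1.45 between those 2 libraries and 1.72 between the WT libraries. Pairs of libraries shared 0 to 15 barcodes of kept cells, where up to 13.6 were expected from random draws of the barcode list, and no barcode was that of a member in 2 libraries.

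Markers that the rule did not use were read next. Il2rb and Cd7 were given with the label and are no independent check of it. Il2rb had a UMI in 292 members (90.4%) and Cd7, a surface protein of NK and T cells, in 215 (66.6%). In 1769 cells with at least 5% collagen UMIs, which should lack both genes, Il2rb had a UMI in 4 cells (0.226%) and Cd7 in 0, which allows a share of up to 0.170%, although these cells were deeper, with a median of 3681 UMIs. Among the genes of the rule, Ccl5 had a UMI in 257 members (79.6%), Gzma in 133 (41.2%), Gzmb in 105 (32.5%) and Gzmc in 60 (18.6%). Il2rb and Cd7 thus marked most members, and Gzmc, 1 of the given markers, a minority. Other genes of cytotoxic cells outside the rule were split. Tyrobp had a UMI in 219 members, Klrd1 in 207 and Xcl1 in 189. Klrb1c had one in 122, Prf1 in 110, Ncr1 in 92, Tbx21 in 83 and Eomes in 68. In 499 type 2 lymphocytes, a class described below, Il2rb had a UMI in 219 cells (43.9%) and Cd7 in 18 (3.61%). The contrast with collagen-rich cells therefore does not set members apart from other lymphocytes. Markers of other cells were low: the neutrophil genes S100a8, S100a9, Retnlg and Csf3r had no UMI in any library, macrophage genes had 1 to 8 UMIs in a library, mast cell and basophil genes 3 to 7 and keratinocyte genes at most 3. B cell genes had 12 to 45 UMIs and dendritic cell genes 4 to 20. Fibroblast genes had 43, 30 and 23 UMIs in Ikkb_cKO libraries and 32 and 55 in WT libraries, or 431, 282 and 49.2 CPM (UMIs scaled to a common library total, here without further normalisation) in Ikkb_cKO members against 191 and 295 CPM in WT members, lowest in Ikkb_cKO library 3. Their part in the results was not tested.

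The rule's edge was narrow. There were 10 members with 3 UMIs of the effector genes, 14 with 4 and 299 with 5 or more, with a median of 35. Just outside it, 22 cells had 2 such UMIs and 21 had 1 with every other condition met.

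The targeted gene was read in members first. Ikbkb had 6, 4 and 33 UMIs in the members of Ikkb_cKO libraries, and 19 and 9 in those of WT libraries, a log2 fold change of -0.30 ± 0.48 (SE) that was not called (adjusted p = 0.748, edgeR). Prrx1 had no UMI in any of the 323 members, which allows a share of members with a UMI of up to 0.929%, and 1398 UMIs in the collagen-rich cells. Which exons lie between the loxP sites is not stated in the labels, so counts at the 3′ end of Ikbkb do not check the deletion.

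Cytotoxic lymphocytes made up a larger share of kept cells in every Ikkb_cKO library than in either WT library. They were 4.57% of 984 cells, 4.58% of 918 and 5.19% of 2369 in Ikkb_cKO libraries (exact 95% intervals 3.35 to 6.07%, 3.32 to 6.13% and 4.33 to 6.16%), and 2.14% of 3088 and 1.45% of 3252 in WT libraries (1.66 to 2.71% and 1.06 to 1.92%). The intervals cover counting error only. The means were 4.78 ± 0.357% in Ikkb_cKO libraries (SD, n = 3) and 1.79 ± 0.489% in WT libraries (SD, n = 2), a difference of 2.99 percentage points, with p = 0.1 in a two-sided exact permutation test, the smallest p that 3 against 2 libraries allow. Without Ikkb_cKO library 3 the difference was 2.78 points. Thinning to 1000 UMIs, to put the cells at equal depth, gave 3.26 points. It left out shallower cells, so that 746 of 984, 727 of 918 and 2073 of 2369 kept cells remained in Ikkb_cKO libraries and 2839 of 3088 and 3005 of 3252 in WT libraries, a larger loss in each Ikkb_cKO library.

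Type 2 lymphocytes, chosen by their Gata3, Il1rl1, Il5, Il13 and Il4 counts, were 131, 95 and 226 cells in Ikkb_cKO libraries (13.3, 10.3 and 9.54% of kept cells) and 20 and 27 in WT libraries (0.648 and 0.830%). Cytotoxic lymphocytes were a smaller part of the lymphoid pool in every Ikkb_cKO library than in either WT library. Members were 22.5, 26.4 and 27.6% of the cells under the 4 lymphoid rules in Ikkb_cKO libraries, and 61.1 and 49.5% in WT libraries. The difference was -29.8 points, with means of 25.5 ± 2.66% in Ikkb_cKO libraries (SD, n = 3) and 55.3 ± 8.23% in WT libraries (SD, n = 2), and again p = 0.1 by the exact permutation test. Without Ikkb_cKO library 3 it was -30.8 points. Shares carry no number of cells per area of skin.

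**Figure D1:**
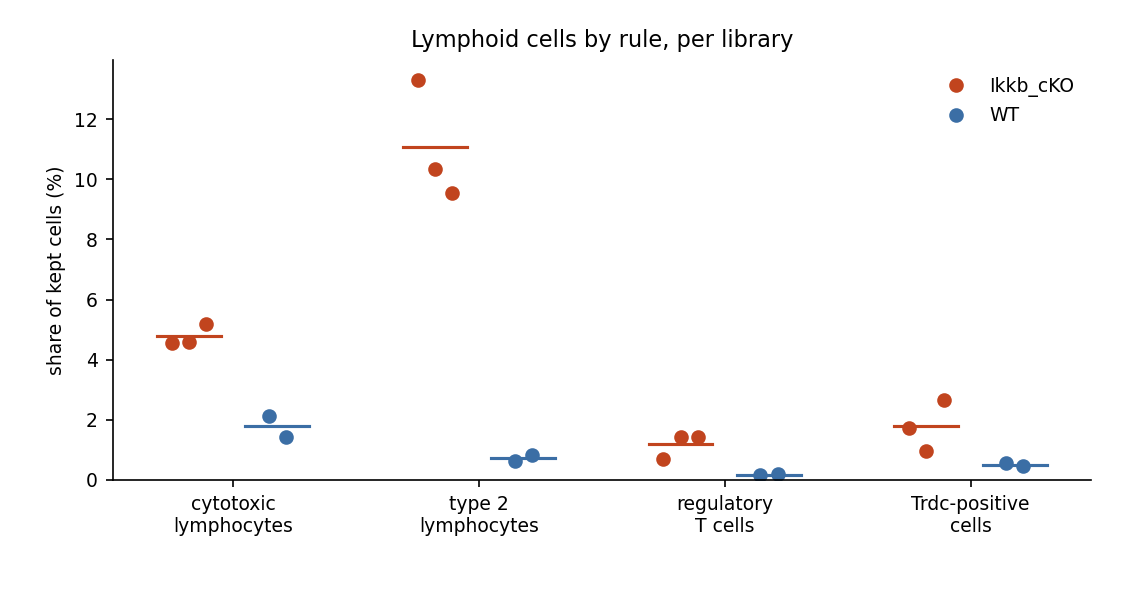
Share of kept cells (%, y axis) in 4 classes of lymphoid cells chosen by UMI rules, with 1 point for each library and a line at the mean of 3 Ikkb_cKO libraries (left of each pair) and 2 WT libraries (right). Cytotoxic lymphocytes lie between 4.57 and 5.19% in Ikkb_cKO libraries and at 1.45 and 2.14% in WT libraries.

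Members differed in their UMIs of T cell genes. Those with at least 2 UMIs of Cd3d, Cd3e, Cd3g and Trac, which encode CD3 chains and the constant part of the T cell receptor α chain, are called CD3-positive, and those with none CD3-negative. There were 151 CD3-positive and 148 CD3-negative members, and 24 had 1 such UMI. CD3-positive cells were 6 of 45, 10 of 42 and 77 of 123 members in Ikkb_cKO libraries (13.3, 23.8 and 62.6%), and 34 of 66 and 24 of 47 in WT libraries (51.5 and 51.1%). The Ikkb_cKO libraries lay on either side of the WT libraries, with library 3 the highest of all. The means were 33.2 ± 26.0% in Ikkb_cKO libraries (SD, n = 3) and 51.3 ± 0.319% in WT libraries (SD, n = 2), with p = 0.4 in the exact permutation test, so a difference was not shown. Without Ikkb_cKO library 3 the difference was -32.7 points, and in the cells deep enough to be thinned to 1000 UMIs it was -28.7 points with p = 0.2 in the exact permutation test. In collagen-rich cells the same threshold was met by 1 of 538 Ikkb_cKO cells (0.186%) and 1 of 1231 WT cells (0.0812%).

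Within the CD3-positive members, 50 had a UMI of the killer T cell coreceptor CD8 (Cd8a or Cd8b1) and 10 had one of Cd4. A UMI of the gamma-delta receptor segments Trdv4, Tcrg-C1, Tcrg-C2 or Tcrg-C4 was found in 47 of them, although Trdc was at 0 by the rule. Of these 47 cells, 31 came from Ikkb_cKO library 3. Cd8a, Cd8b1, Cd4 and Tcrg-C1 had no UMI in any CD3-negative member, whereas 28 CD3-negative members had a UMI of at least 1 of the 4 segments. UMIs read at the 3′ end give no receptor sequence.

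Ccl5, the chemokine gene of the rule, had a UMI in 43 of 45, 39 of 42 and 76 of 123 members of Ikkb_cKO libraries and in 58 of 66 and 41 of 47 members of WT libraries. Ikkb_cKO library 3 was the lowest of the 5. Gzmb, whose product triggers apoptosis in target cells, had a UMI in 16, 19 and 32 members of Ikkb_cKO libraries and in 17 and 21 of WT libraries.

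The granzymes separated the members further. Gzma reached 3 UMIs in 116 members and Gzmc in 48, and no member reached 3 UMIs of both. Gzma-rich cells were 91 of the 148 CD3-negative and 11 of the 151 CD3-positive members. Gzmc-rich cells were 15 CD3-negative and 31 CD3-positive members, with up to 664 Gzmc UMIs in a cell. They were 2, 1 and 35 members in Ikkb_cKO libraries and 3 and 7 in WT libraries, so that Ikkb_cKO library 3 held most of them. Summed Gzmc UMIs were 87, 37 and 2504 in Ikkb_cKO libraries and 246 and 1016 in WT libraries, and Gzma UMIs were 430, 666 and 568 in Ikkb_cKO libraries and 220 and 477 in WT libraries. The near-identical neighbours of Gzmc were almost silent, with 0 UMIs of Gzmd and Gzmg, 3 of Gzme and 2 of Gzmf, but reads shared within this cluster could be lost or split by the counting.

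**Figure D2:**
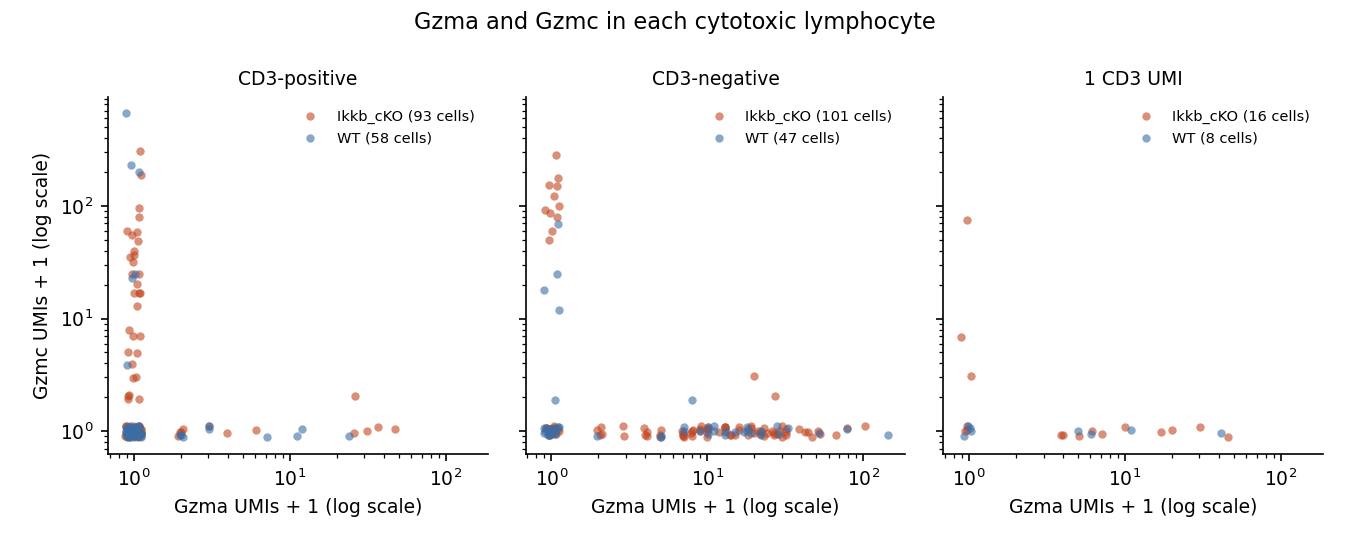
Gzma UMIs + 1 (x axis, log scale) against Gzmc UMIs + 1 (y axis, log scale) in each of the 323 members, with a small random offset to part equal points, in 3 panels for CD3-positive members, CD3-negative members and members with 1 CD3 UMI. Cells run along 1 axis or the other, and none has 3 UMIs of both genes.

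CD3-positive were compared with CD3-negative members within libraries, leaving out Ikkb_cKO library 1 with its 6 CD3-positive cells. Of 1208 genes tested, 16 (1.32%) were higher and 23 (1.9%) lower in CD3-positive members at an adjusted p under 0.05 (edgeR's quasi-likelihood test with library as block). Ncr1 among the NK receptor genes, like Prf1, entered the test through the CD3-negative members, as the values below show. The number of NK receptor genes called is therefore not counted as a result.

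Ncr1, which encodes the activating receptor NKp46, had 294, 4.80, 26.4 and 97.8 TMM-normalised CPM (as all CPM from here on) in CD3-positive members of Ikkb_cKO libraries 2 and 3 and WT libraries 1 and 2, and 493, 138, 890 and 553 CPM in CD3-negative members of the same libraries. It was lower in each of the 4 libraries, and its log2 fold change (± SE) was -2.99 ± 0.50. As Ncr1 entered the test through the CD3-negative members, its call is not counted as a result. Klrb1c, the gene of NK1.1, fell by 2.72 ± 0.38 (adjusted p = 0.000288, edgeR). Klre1, a partner of other killer lectin-like receptors, fell by 1.93 ± 0.28 (adjusted p = 5.9e-05, edgeR). Prf1 had 294, 62.5, 0 and 73.3 CPM in CD3-positive members and 774, 448, 586 and 415 CPM in CD3-negative members of the same 4 libraries, and fell by 2.82 ± 0.42. Its call is likewise not counted as a result. Serpinb9, an inhibitor of granzyme B, fell by 1.84 ± 0.26 (adjusted p = 4.14e-05, edgeR).

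Among T cell genes, Lat, Trbc2 and Lck were called higher in CD3-positive members. Lat entered the test through these members, so the number is not counted as a result. Lat, an adaptor below the receptor, had 294, 356, 753 and 623 CPM in CD3-positive and 17.6, 129, 65.1 and 92.2 CPM in CD3-negative members, with a log2 fold change of 2.42 ± 0.34. For the same reason its call is not counted as a result. Cxcr6, a chemokine receptor of tissue-resident lymphocytes, rose by 2.46 ± 0.42 (adjusted p = 0.000697, edgeR), and Icos, a costimulatory receptor, by 1.81 ± 0.36 (adjusted p = 0.00279, edgeR). The interferon-inducible Ifi27l2a rose by 3.88 ± 0.36 (adjusted p = 8.26e-07, edgeR). Its level within CD3-positive members was 392 and 255 CPM in Ikkb_cKO libraries 2 and 3 and 1917 and 2298 CPM in WT libraries. Of 24 genes named in this comparison, 14 were called in every fit that left out 1 library and still tested them. These 14 include Ncr1, Prf1 and Lat, which entered the test through 1 kind of member. Icos lost its call without Ikkb_cKO library 2 (adjusted p = 0.0530) and Lck without WT library 1 or 2 (up to 0.133). Without the library block 1 gene was higher and 3 were lower. The NK receptor adaptor gene Tyrobp, also called lower, lost its call without Ikkb_cKO library 3 or WT library 2 (up to 0.109).

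Against type 2 lymphocytes of the same 5 libraries, members were set apart by many genes. Of 2128 genes tested, 237 (11.1%) were higher and 305 (14.3%) lower in members at an adjusted p under 0.05 (edgeR, library as block). Many NK receptor genes were at or near 0 in type 2 lymphocytes, so that they entered the test through the members alone, and their number is not counted as a result. Klrg1, an inhibitory receptor also found on type 2 innate lymphoid cells, had 5, 13 and 8 UMIs in members of Ikkb_cKO libraries and 10 and 21 in those of WT libraries, against 95, 65 and 155 in type 2 lymphocytes of Ikkb_cKO libraries and 26 and 28 in those of WT libraries, and fell by 2.64 ± 0.33 (adjusted p = 7.39e-05, edgeR). Klra7 and Klra4 encode receptors of the Ly49 family, whose near-identical members can share reads. Klra7 had 50, 51 and 108 UMIs in members of Ikkb_cKO libraries and 51 and 80 in those of WT libraries, and none in 499 type 2 lymphocytes, at least 146-fold higher against 3 counts over the group. Klra4 was likewise at least 112-fold higher. Klrb1c had 257 UMIs in members and 2 in type 2 lymphocytes, a ratio of 166 with a 95% counting interval of 45.4 to 1375.

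Genes of the cytotoxic granule differed in both directions. Prf1, Fasl, Serpinb9, Serpinb6b and Ctsw were higher in members, the first pair with at most 5 UMIs in type 2 lymphocytes, and Srgn, which encodes the granule proteoglycan serglycin, was lower. Prf1 had 445, 584 and 178 CPM in members of Ikkb_cKO libraries and 187 and 196 CPM in those of WT libraries, against 0, 10.3 and 5.62 CPM in type 2 lymphocytes of Ikkb_cKO libraries and 0 and 0 CPM in those of WT libraries. It entered the test through the members alone, so its call is not counted as a result. Tbx21 (T-bet), a transcription factor of NK and killer T cells, had 109 UMIs in members and 6 in type 2 lymphocytes, all 6 in Ikkb_cKO library 3. It likewise entered the test through the members alone. Eomes, another such factor, had 101 UMIs in members and 3 in type 2 lymphocytes, a ratio of 43.4 with a 95% counting interval of 14.4 to 214. Tyrobp, which encodes the signalling adaptor DAP12 of activating NK receptors, had 2295 UMIs in members and 120 in type 2 lymphocytes, 84 of these in Ikkb_cKO library 3. Tyrobp too entered the test through the members alone, so its call is not counted as a result.

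The given markers that the rule did not use, Il2rb and Cd7, were chosen with earlier results of these data known. Their values are therefore a description and no support for the label. Il2rb had 1650.4, 2095 and 1790.3 CPM in members of Ikkb_cKO libraries and 917 and 1178 CPM in those of WT libraries, against 280, 313 and 547 CPM in type 2 lymphocytes of Ikkb_cKO libraries and 206 and 171 CPM in those of WT libraries. Members were higher in all 5 libraries, by 2.35 ± 0.18 (adjusted p = 1.99e-07, edgeR). Cd7 had 68, 84 and 312 UMIs in members of Ikkb_cKO libraries and 185 and 226 in those of WT libraries. In type 2 lymphocytes it had 1, 1 and 34 UMIs in Ikkb_cKO libraries and 0 and 0 in WT libraries, and it entered the test through the members alone. The chemokine gene Xcl1 had 1053 UMIs in members and 80 in type 2 lymphocytes, and likewise entered the test through the members alone. Its call is not counted as a result, and was lost without Ikkb_cKO library 3 or WT library 2 (adjusted p up to 0.0809, edgeR).

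Genes lower in members included the growth factor genes Csf2 and Areg, the arginase gene Arg1 and the receptor genes Il2ra and Il7r. Csf2 had 11.7, 11 and 12.3 CPM in members of Ikkb_cKO libraries and 6.46 and 11.6 CPM in those of WT libraries, against 1653, 1464 and 1271 CPM in type 2 lymphocytes of Ikkb_cKO libraries and 3713 and 2796 CPM in those of WT libraries. It entered the test through the type 2 lymphocytes alone, so its call is not counted as a result. Areg, which encodes amphiregulin, fell by 7.10 ± 0.66 (adjusted p = 0.00253, edgeR). Arg1 fell by 6.24 ± 0.78, with 14 UMIs over all members. Like Csf2, it entered the test through the type 2 lymphocytes alone, and its call is not counted as a result. Slc7a8, an amino acid transporter gene, had no UMI in members and 200 in type 2 lymphocytes, at least 51.7-fold lower. Of 12 immediate early genes 11 were lower (median log2 fold change -1.43), and of 14 NF-κB genes 8 (median -1.24), where 14.3% of all genes tested were lower. Among these 8 were Nfkbia and Tnfaip3, both feedback inhibitors of the pathway. Cell cycle genes went the other way, with 6 of 10 higher (median 1.10), where 11.1% of all genes tested were higher. Of 33 genes named in this comparison 31 were called in every fit that left out 1 library and still tested them, the exceptions being Xcl1 and the chemokine gene Cxcl2, which lost the call without Ikkb_cKO library 2 or 3 or WT library 1 (adjusted p up to 0.0640, edgeR). These 31 include genes that entered the test through 1 class alone, such as Csf2 and Tyrobp.

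**Figure D3:**
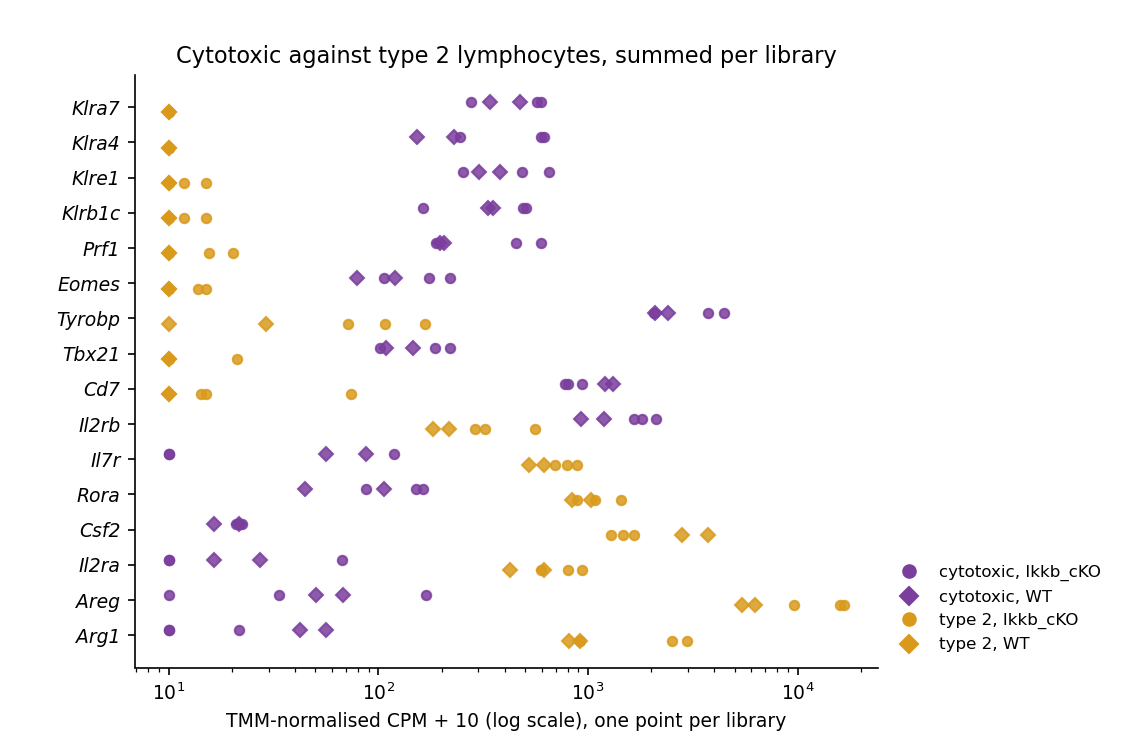
TMM-normalised CPM + 10 (x axis, log scale) of 16 genes in cytotoxic lymphocytes (purple, upper row of each gene) and type 2 lymphocytes (orange), summed per library, with circles for 3 Ikkb_cKO and diamonds for 2 WT libraries. For Klra7 at the top the members lie between 267 and 585 CPM and type 2 lymphocytes at 0, and for Csf2 the members lie at or under 12.3 CPM.

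Regulatory T cells, chosen by Foxp3, were enough for a test in Ikkb_cKO libraries 2 and 3 only, with 13 and 34 cells. Of 1463 genes, 59 (4.03%) were higher and 65 (4.44%) lower in members (edgeR, library as block). Most NK receptor genes called had no UMI in regulatory T cells and entered the test through members alone, so they are not counted as a result. Ccl4, a chemokine gene, had 348 and 125 UMIs in members of the 2 libraries and 0 in regulatory T cells, at least 35.5-fold higher. Ctla4, which encodes an inhibitory receptor, fell by 5.44 ± 0.58 (adjusted p = 0.000435, edgeR).

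The genotypes were then compared within cytotoxic lymphocytes, with UMIs summed over the members of each library. Of 2634 genes tested, 76 (2.89%) were higher and 29 (1.1%) lower in Ikkb_cKO members at an adjusted p under 0.05 (edgeR's quasi-likelihood test). All 105 called genes had no overlap between the 3 Ikkb_cKO and the 2 WT libraries, but so did 41.2% of all genes tested. Of 18 NK receptor genes, 10 transcription factor genes and 17 cell cycle genes, 0 were called, with medians of 0.38, 0.70 and -0.74 on the log2 scale against 0.01 over all genes. At the share of 3.99% called over all genes in either direction, such counts say nothing particular about these lists.

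Il2rb, the gene of the β chain of the IL-2 and IL-15 receptors, had 1651, 2111 and 1843 CPM in members of Ikkb_cKO libraries, and 933 and 1210 CPM in those of WT libraries. It rose by 0.80 ± 0.20 (adjusted p = 0.0266, edgeR), but within CD3-negative members its log2 fold change was 0.53 ± 0.19 and not called (adjusted p = 0.153, edgeR).

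Vegfa, the gene of a growth factor for blood vessels, had 20, 9 and 52 UMIs in members of Ikkb_cKO libraries and 1 and 1 in those of WT libraries, from 49 of 210 and 2 of 113 cells. The ratio of summed counts was 21.3, with a 95% counting interval of 5.71 to 179. Vegfa entered the test through the Ikkb_cKO members alone, so its call is not counted as a result. Nfkb1, which encodes the NF-κB subunit p105/p50, had 246, 100 and 320 CPM in Ikkb_cKO members and 39.4 and 47.5 CPM in WT members, and rose by 2.42 ± 0.49. It too entered the test through the Ikkb_cKO members alone. It was the only one of 13 NF-κB genes called, where 3.99% of all genes were. The median log2 fold change of these 13 was 1.04, with 11 above 0, against 0.01 over all genes. Within CD3-negative members Nfkb1 was not called (adjusted p = 0.0517, edgeR), and the median of 6 NF-κB genes was -0.05. Whether the list differed from other genes was not tested. Satb1, a chromatin organiser of T cells, rose by 2.00 ± 0.36 (adjusted p = 0.00289, edgeR).

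Trbc1, 1 of the 2 near-identical constant genes of the T cell receptor β chain, had 597, 711 and 450 CPM in Ikkb_cKO members and 118 and 125 CPM in WT members. It rose by 2.24 ± 0.32 (adjusted p = 0.000403, edgeR). The difference was also seen in CD3-negative members, with 36, 55 and 67 UMIs in Ikkb_cKO libraries against 8 and 11 in WT libraries and a log2 fold change of 2.10 ± 0.36 (adjusted p = 0.00492, edgeR). Of 14 T cell genes tested, 1 was called, which is Trbc1, where 3.99% of all genes were called. The median log2 fold change of the list was -0.45. Whether Trbc1 differed from the other T cell genes was not tested. A pair of variable segments of the same locus fell, and each rests on few cells. Trbv13-1 came from 1 cell in each WT library, with 19 and 42 UMIs, and 1 UMI in Ikkb_cKO. It entered the test through the WT members alone, so its call is not counted as a result. Trbv17 had 0, 1 and 29 UMIs in members of Ikkb_cKO libraries and 114 and 157 in those of WT libraries, from 8 of 210 Ikkb_cKO and 17 of 113 WT members. Trbv13-1 lost its call without WT library 2 (adjusted p = 0.327, edgeR), and Trbv17 without either WT library (up to 0.206).

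Cd8b1, which encodes the β chain of CD8, had 6, 2 and 34 UMIs in Ikkb_cKO libraries and 33 and 31 in WT libraries, and fell by 1.55 ± 0.41 (adjusted p = 0.041, edgeR). Cd8a, the gene of the α chain, had 7, 1 and 55 UMIs in Ikkb_cKO libraries and 24 and 43 in WT libraries, and a log2 fold change of -1.13 ± 0.55 that was not called (edgeR, adjusted p = 0.254). Gzmk, a granzyme gene of memory-like killer T cells, had 2, 0 and 4 UMIs in Ikkb_cKO libraries and 37 and 16 in WT libraries, and fell by 3.90 ± 0.65. Gzmk entered the test through the WT members alone, so its call is not counted as a result. CD3-positive members with a CD8 UMI were 2, 1 and 24 cells in Ikkb_cKO libraries and 11 and 12 in WT libraries, and in such sums fewer cells of a kind and less RNA per cell cannot be told apart. Among other genes that fell, Gclm, which encodes a subunit of the enzyme that starts glutathione synthesis, had 70.3, 100 and 76.3 CPM in Ikkb_cKO members and 283 and 540 CPM in WT members, with a log2 fold change of -2.35 ± 0.37 (adjusted p = 0.000843, edgeR). The cell division genes Tk1, Spc24 and Gmnn, outside the list of cell cycle genes, fell by 1.79 to 2.31 on the log2 scale. With 1 library left out, Spc24 and Gmnn kept the call in 1 of 5 fits and Tk1 in 0 of the 3 that tested it.

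**Figure D4:**
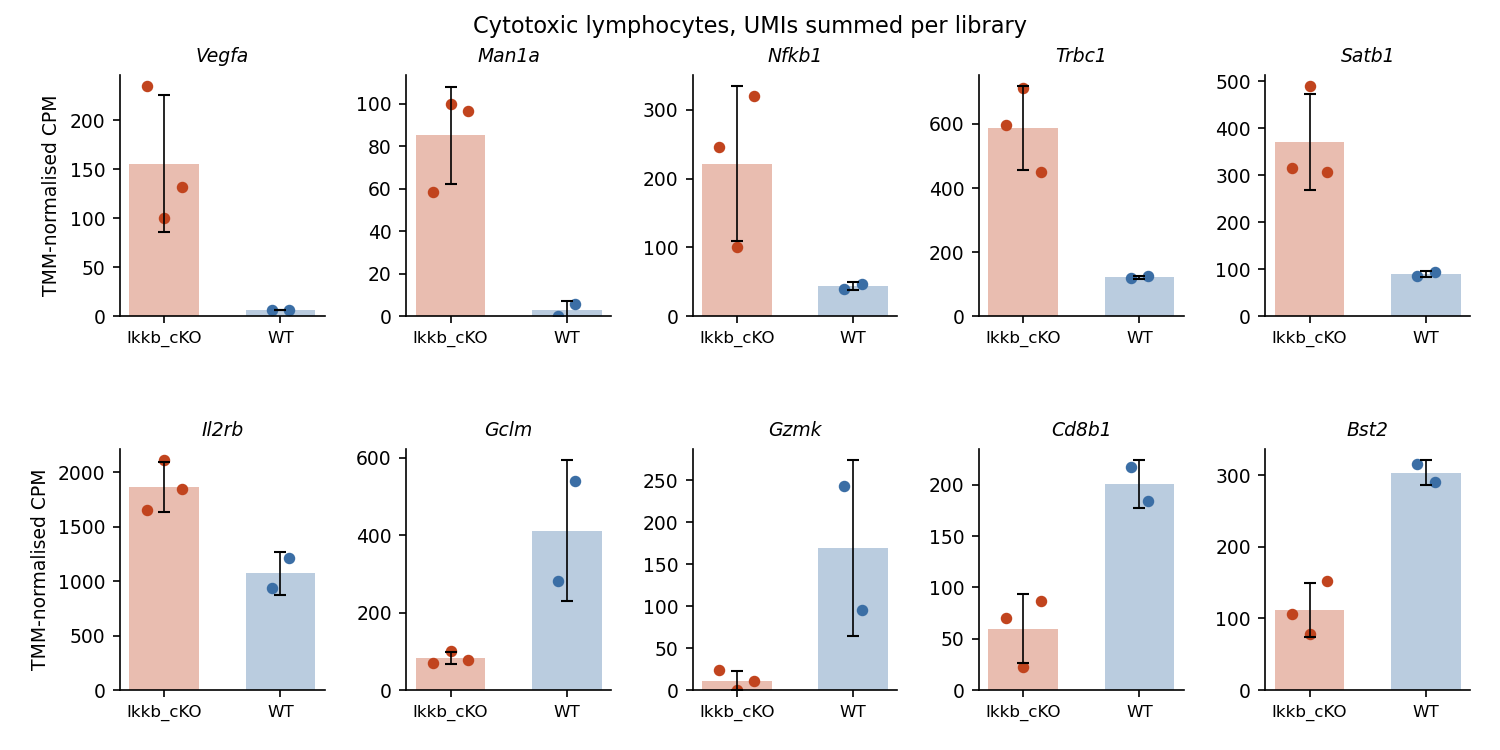
TMM-normalised CPM (y axis, from 0) of 10 genes in cytotoxic lymphocytes summed per library, with a point for each of 3 Ikkb_cKO libraries (left) and 2 WT libraries (right), bars at the mean and error bars of 1 SD. The 6 genes from Vegfa to Il2rb are higher in each Ikkb_cKO library than in either WT library, and the 4 from Gclm to Bst2 lower.

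Restricting the genotype comparison to CD3-negative members, which 22 to 40 cells in a library allowed, left 33 genes (2.7%) higher and 5 (0.41%) lower of 1220 tested (edgeR). Of these 38 genes, 33 were also among the 105 called over all members, that is 86.8% of the shorter and 31.4% of the longer list. Trbc1 and Satb1 were among them, and Gclm fell by 2.71 ± 0.49 (adjusted p = 0.00718, edgeR). Vegfa was also among them, with 51 UMIs in Ikkb_cKO and 2 in WT. Here too it entered the test through the Ikkb_cKO members alone. The calls over all members moved with the libraries used. Without Ikkb_cKO library 3, 205 genes were higher and 118 lower, without Ikkb_cKO library 1, 23 and 8, and without Ikkb_cKO library 2, 38 and 8. With WT library 2 alone as the WT group they were 15 and 4, and with WT library 1 alone 9 and 1, the lone library being taken to vary like the others. Of 30 genes named here, Trbc1, Rps29 and Rps28 were called in all 5 of these fits. Gclm was called in 4, and lost the call without WT library 2. Vegfa and Gzmk were also called in 4, but each entered the test through 1 genotype alone. The call was lost without WT library 2 for Vegfa and without WT library 1 for Gzmk. Il2rb and Cd8b1 were called in 1, and Satb1 in the 3 that kept both WT libraries (adjusted p up to 0.140 in the others). Nfkb1 lost the call without Ikkb_cKO library 1 or either WT library (up to 0.222). Without members that had gamma-delta segment UMIs, 63 genes were higher and 23 lower.

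Several of these differences stood in unlike cells of the same libraries. The genotypes were compared in cells with at least 5% collagen UMIs and in cells with at least 1% MHC class II UMIs and under 1% collagen UMIs. These comparisons share libraries with that in members, so their values are set side by side. In collagen-rich cells 1155 of 8700 genes (13.3%) were higher and 1299 (14.9%) lower, and in MHC class II-rich cells 498 of 8762 (5.68%) were higher and 564 (6.44%) lower (edgeR).

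Ribosomal protein and mitochondrially encoded genes made up 21 of the 105 calls in members, from 17 of 80 and 4 of 12 tested, against 3.99% called over all genes. Rps29, of the small ribosomal subunit, had 8456, 7656 and 9588 CPM in members of Ikkb_cKO libraries and 2537 and 2064 CPM in those of WT libraries. Its log2 fold change was 1.90 ± 0.16 in members, 1.81 ± 0.19 in collagen-rich cells and 1.61 ± 0.17 in MHC class II-rich cells, and the difference from either was not called (adjusted p = 1 and 0.355, edgeR). Vegfa was also called higher in collagen-rich cells, by 2.17 ± 0.23, and in MHC class II-rich cells, by 3.07 ± 0.40. Gclm had -2.35 ± 0.37, -2.20 ± 0.28 and -2.67 ± 0.26 in the 3 kinds of cells, all called. The part that the libraries' depth and preparation had in these differences was not tested.

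Interferon-response genes were then read in the same 3 kinds of cells. Of 16 tested in members, 1 was lower in Ikkb_cKO, with a median log2 fold change of -0.54, where 1.1% of all genes were lower. In collagen-rich cells 8 of 14 were lower (median -1.0), where 14.9% of all genes were, and in MHC class II-rich cells 8 of 16 (median -0.86), where 6.44% were. The fits differ in depth and calls, and the difference between these counts was not tested. The called gene was Bst2, which encodes the viral restriction factor tetherin, with 105, 77.8 and 153 CPM in Ikkb_cKO members and 316 and 291 CPM in WT members and a log2 fold change of -1.31 ± 0.34 (adjusted p = 0.0365, edgeR). Without Ikkb_cKO library 1 or 2, or either WT library, it lost the call (adjusted p up to 0.294).

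Isg15, a ubiquitin-like protein induced by interferon, had 164, 189 and 135 CPM in members of Ikkb_cKO libraries and 217 and 243 CPM in those of WT libraries, a log2 fold change of -0.55 ± 0.33 that was not called (adjusted p = 0.333, edgeR). In collagen-rich cells it had 18.6, 77.9 and 26.3 CPM in Ikkb_cKO libraries and 294 and 409 CPM in WT libraries, and in MHC class II-rich cells 79.9, 51.0 and 55.1 CPM in Ikkb_cKO libraries and 390 and 412 CPM in WT libraries. The genotype difference was tested against both, with library as block: that in members exceeded that in collagen-rich cells by 2.67 ± 0.39 (adjusted p = 0.000964, edgeR) and that in MHC class II-rich cells by 2.20 ± 0.32 (adjusted p = 0.0025, edgeR). Over all genes tested, 47 of 2634 (1.78%) lay above and 18 (0.683%) below the collagen-rich cells in this test, and 29 (1.1%) above and 14 (0.532%) below the MHC class II-rich cells.

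**Figure D5:**
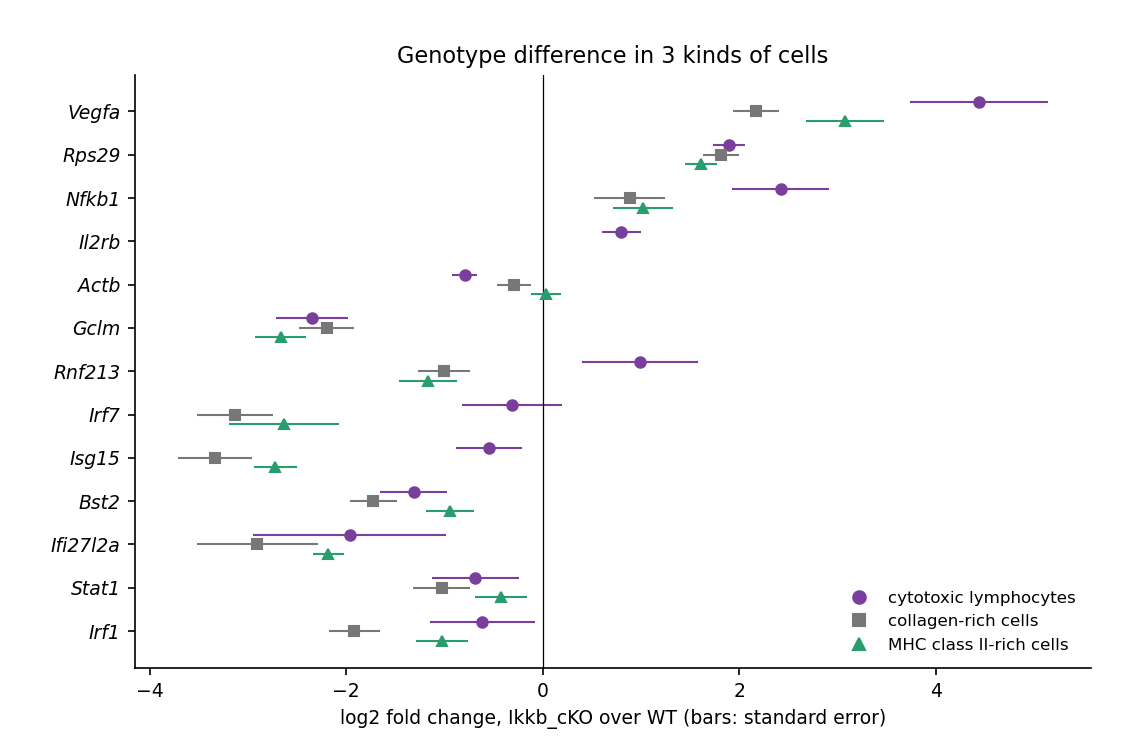
Log2 fold change of Ikkb_cKO over WT (x axis, bars of 1 standard error) for 13 genes in cytotoxic lymphocytes (circles), collagen-rich cells (squares) and MHC class II-rich cells (triangles). Rps29 and Gclm lie close together in the 3 kinds of cells, while Isg15 lies at -0.55 in cytotoxic lymphocytes and at -3.33 and -2.72 in the others, and Il2rb was tested in cytotoxic lymphocytes alone.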

How the data were processed

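Ventral skin cells were sorted to remove debris, DAPI-positive dead cells and aggregates and captured per library, per the labels' protocols. The deposited matrices hold raw UMI counts (whole numbers, not normalized) made by the authors; the submitters' processing notes name Cell Ranger 1.3.0 and the mm10 build, and the matrices carry software version 3.0.1, per the file headers. Of 11084 barcodes 10611 were kept. The members and the gene lists were chosen with earlier results of these data known.

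Library shares were compared by exact permutation over the 10 splits of 5 libraries. Counts were summed per library and kind of cell where at least 10 cells were present, filtered with filterByExpr, TMM-normalised and tested with edgeR 4.0.16 (robust quasi-likelihood, R 4.3.3), with Benjamini-Hochberg adjustment over all genes tested and a threshold of 0.05. Genes used by the rules of a class were not tested in comparisons of classes. The fits were tested on simulated data with 100 genes changed 2-fold and 100 changed 4-fold. The genotype fit found 23 and 77 of these, and 12 of its 112 calls were false. The fit against type 2 lymphocytes found 67 and 98, with 7 of 172 calls false. Against regulatory T cells 23 and 81 were found, with 4 of 108 calls false. Between CD3-positive and CD3-negative members 75 and 98 were found, with 7 of 180 calls false. P-values of the genotype fits measure the spread between libraries. In fits with library as block they measure how the difference within a library varies between libraries. The labels do not say whether the libraries of a genotype were separate preparations.

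Scrublet (scanpy 1.11.5) marked 39 barcodes (0.352%), 1 of them a member, too few to take as a working doublet call; the rule's limits on collagen and MHC class II UMIs stood in for it. Named genes were the rule genes, the given markers, up to 6 genes of a list by UMIs in members, and up to 12 per direction by fold change among called genes that did not overlap and averaged at least 6 log2 CPM; that ranking took no gene models and no ribosomal, mitochondrial, haemoglobin or sex-linked genes. Genes outside it (Rps29, Rps28, Gzmd to Gzmg, and the genes set beside other cells) were chosen after their values were seen. Replicate numbers did not pair libraries (correlations of deviations 0.08 and -0.07). Alternatives were other cell filters, effector thresholds, normalization (DESeq2 1.42.0 size factors), the DESeq2 Wald test, low-count filters, thinning, blocks and leaving out each library. Results for a few genes are not reported here.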

Additional observations from a re-analysis of the deposited data

Results flagged for a closer look

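For 6 genes named here, the difference between genotypes in members differed from that in another kind of cell of the same libraries, by a test of the difference itself (edgeR, library as block, adjusted over 2634 genes). Isg15 and Irf7 were flagged against both other kinds of cells. Rnf213, Man1a, Actb and Cd8b1 were flagged against MHC class II-rich cells only, and not against collagen-rich cells.

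Isg15 differed by 2.67 from collagen-rich and by 2.2 from MHC class II-rich cells, as given above. Irf7, a transcription factor of the interferon response, had 8, 8 and 17 UMIs in members of Ikkb_cKO libraries and 17 and 9 in those of WT libraries, a log2 fold change of -0.31 ± 0.51. It differed by 2.45 ± 0.65 from collagen-rich cells (adjusted p = 0.0488, edgeR), where the log2 fold change was -3.13 ± 0.39, and by 2.47 ± 0.55 from MHC class II-rich cells (adjusted p = 0.03, edgeR), where it was -2.64 ± 0.56. Rnf213, an interferon-inducible ubiquitin ligase, had 8, 9 and 21 UMIs in Ikkb_cKO members and 4 and 8 in WT members, and differed by 2.18 ± 0.52 from MHC class II-rich cells (adjusted p = 0.0448, edgeR).

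Man1a, a mannosidase of the Golgi, had 5, 9 and 38 UMIs in Ikkb_cKO members and 0 and 1 in WT members, and differed by 4.7 ± 0.88 from MHC class II-rich cells (adjusted p = 0.0121, edgeR), where the log2 fold change was 0.03 ± 0.26. Man1a entered this test through the Ikkb_cKO members alone, so its flag is not counted as a result. Actb, the gene of β-actin, had 6114, 6533 and 6412 CPM in Ikkb_cKO members and 10754 and 11301 CPM in WT members, and differed by -0.784 ± 0.15 from MHC class II-rich cells (adjusted p = 0.0121, edgeR), where it was 0.03 ± 0.15. For Cd8b1 the fit gave -7.28 against MHC class II-rich cells, which held 5, 1 and 16 of its UMIs in Ikkb_cKO libraries and 0 and 0 in WT libraries. This value rests on a group at 0 and is no measure of size.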

How the results depend on the processing

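The 3 differences in share kept their direction under every alternative run, with 2.64 to 3.33 points for cytotoxic lymphocytes among kept cells, -35.6 to -24.0 for their share of lymphoid cells and -32.7 to -8.08 for CD3-positive members when 1 library was left out. No named gene changed sign. Counts of called genes are given as higher and lower. For genotype they ran from 9 to 205 and from 1 to 118 with 1 library left out, were 40 and 11 by the DESeq2 Wald test, 63 lower with no low-count filter, and 33 and 5 in CD3-negative members, or 29 and 9 there without Ikkb_cKO library 3. With the replicate number as a block they were 219 and 149, although the numbers share no more than a label. Against type 2 lymphocytes they were 470 and 536 with no filter and 380 and 514 with at least 10 UMIs in at least 2 libraries. Against regulatory T cells they were 18 and 42 by the Wald test, 131 higher with no filter, 104 and 99 with the stricter filter, 99 lower with DESeq2 size factors and 99 lower with at least 5 effector UMIs; without Ikkb_cKO library 2 or 3 no fit was possible, and WT libraries were not in it. For CD3-positive members they were 5 higher by the Wald test, 40 and 36 with no filter, 33 and 42 with the stricter filter, and 1 and 3 without the library block (no replicate block), in a fit that treats the 2 kinds of cells of a library as separate. The cause of these moves was not tested. The number of libraries, 3 against 2, and of members, 42 to 123 in a library, limits what small changes and genes with few UMIs can show.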
